A study of Mus musculus with 4 samples.

Results

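NK cells and type 1 innate lymphocytes were drawn from single-cell RNA-seq of mouse liver by the transcripts that mark them. A barcode was kept as a cell when it had 500 to 6000 genes with UMIs (unique molecular identifiers, each standing for a captured transcript) and 10% or less of its UMIs were mitochondrial. A kept cell was a member when its UMIs of Ncr1, Klre1 and Klrb1c summed to at least 2. It also had no UMI of the T cell genes Cd3e and Cd3d, the B cell gene Cd79a or the Kupffer cell gene Clec4f, and less than 0.2% of its UMIs came from the endothelial genes Pecam1, Kdr, Stab2, Clec4g, Ptprb and Cdh5. Of 30362 kept cells, 357 were members (1.18%): 63 of 7155 in WT, 154 of 6275 in YAPKO, 87 of 8638 in TAZKO and 53 of 8294 in DKO. The members were chosen by the levels of these 13 genes, so the values of those genes in members are a description.

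The study deleted Yap1, Wwtr1 (the gene of TAZ) or both with Alb-Cre, which acts in hepatocytes and biliary cells, on YAP fl/fl, TAZ fl/fl or doubly floxed backgrounds (YAPKO, TAZKO and DKO), beside a wild type (WT). Lymphocytes do not make albumin, so by design the members keep intact alleles in livers whose epithelium was to lose them. Hepatocytes and non-parenchymal cells were isolated separately from each liver and mixed before loading on the 10x Genomics 3′ chemistry. There was 1 mouse and 1 library for each genotype, no treatment, and no strain, age or sex in the labels of these libraries. Genotype, mouse and preparation cannot be told apart, no test was made between genotypes, and the intervals beside ratios to WT show counting error only. The 3 comparisons share the WT library.

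NK cells and type 1 innate lymphoid cells (ILC1) are lymphocytes that lack rearranged antigen receptors and act through granzymes, perforin, chemokines and interferon gamma. Both carry the receptor NKp46 (Ncr1) and need the transcription factor T-bet (Tbx21), and the liver holds circulating NK cells, which need Eomes, beside resident ILC1, which carry CXCR6 and the collagen-binding integrin CD49a (Itga1). Their receptors of the Klr family, among them the Ly49 receptors (Klra genes), bind MHC class I and related ligands and set how the cells respond.

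Members held a median of 3750 UMIs and 1609 genes in WT, 4011 and 1709 in YAPKO, 3396 and 1565 in TAZKO, and 2870 and 1356 in DKO. Summed over members, the libraries had 261498, 709595, 323765 and 223208 UMIs in that order, so 1 UMI equals 3.82, 1.41, 3.09 and 4.48 CPM (UMIs scaled to 1000000 UMIs of the members of a library). DKO had the fewest members and the lowest depth per cell, and YAPKO the most of both. Some barcodes occurred in more than 1 library: 23 between WT and YAPKO, 67 between WT and TAZKO, 37 between WT and DKO, 35 between YAPKO and TAZKO, 10 between YAPKO and DKO, and 42 between TAZKO and DKO. None of these pairs joined 2 members.

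The libraries stood apart in ways that run through the results below. Members held hepatocyte transcripts, and the median share of hepatocyte marker UMIs in a member was 1.95% in WT, 0.326% in YAPKO, 1.23% in TAZKO and 0.469% in DKO. Ribosomal reads split differently: Rps3a1 stood at 3067, 3539, 229 and 278 CPM in members of WT, YAPKO, TAZKO and DKO, and its near copy Rps3a3 at 0, 0, 2116 and 2191 CPM. The summed level of both genes was 3067, 3539, 2344 and 2469 CPM, and cells other than members had the same split, with Rps3a3 at 0.499, 0.728, 1126 and 1285 CPM. Reads of such near-identical genes, and of the Klr and granzyme paralogs below, are uncertain in which copy they came from. The Y-linked gene Ddx3y stood at 53.5, 74.7, 129.7 and 108 CPM and Eif2s3y at 107, 114, 80.3 and 103 CPM, while the female-specific transcript Xist had 0, 0, 0 and 1 UMIs.

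The genotype labels were checked in hepatocytes, taken as kept cells with at least 10% hepatocyte marker UMIs and 1000 genes. Yap1 stood at 23.5 CPM in WT, 4.25 in YAPKO, 49.2 in TAZKO and 4.60 in DKO, a log2 ratio to WT of -2.47 (-2.94 to -2.02) in YAPKO, 1.07 (0.85 to 1.29) in TAZKO and -2.35 (-2.68 to -2.04) in DKO. Wwtr1 stood at 5.41 CPM in WT, 12.1 in YAPKO, 0.954 in TAZKO and 2.38 in DKO, with log2 ratios of 1.16 (0.72 to 1.62), -2.51 (-3.70 to -1.49) and -1.19 (-1.72 to -0.65). Each gene was low in the hepatocytes that should lack it, Wwtr1 less so in DKO than in TAZKO. Members had 1 UMI of Yap1 in each library and 0 UMIs of Wwtr1, so the deletions were not measurable in them. No gene of the list of Hippo effectors had enough UMIs in members for a comparison with WT, and their summed level was 7.65 CPM in WT, 7.05 in YAPKO, 12.4 in TAZKO and 8.96 in DKO.

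Among the genes that chose the members, Ncr1, the gene of NKp46, stood at 845 CPM in WT, 944 in YAPKO, 541 in TAZKO and 564 in DKO. Klre1, a lectin-like receptor, stood at 837, 955, 976 and 547 CPM in the same order, and Klrb1c, the gene of the NK1 antigen, at 226, 186, 556 and 125 CPM. Klrb1c was highest in TAZKO, where 72 of 87 members had a UMI, against 32 of 63 in WT, 75 of 154 in YAPKO and 18 of 53 in DKO. Ncr1 and Klre1 alone, with at least 2 UMIs, gave 62, 153, 80 and 51 members.

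The genes with the highest ratio of CPM in members to all other kept cells are given for all libraries pooled. Of the 20 highest, 12 were Klr genes, 10 of them besides those of the rule: Klra8 (414-fold), Klra4 (242-fold), Klrb1a (242-fold), Klri2 (209-fold), Klra3 (189-fold), Klrc3 (175-fold), Klrb1f (163-fold), Klrb1b (159-fold), Klra9 (159-fold) and Klra13-ps (157-fold). Mediators of killing came beside them, with Gzma at 253-fold, Gzmc at 166-fold and Prf1, the gene of perforin, at 140-fold. Cma1, a mast cell chymase gene, had the highest ratio, at 635-fold. Serpinb9b, an inhibitor related to the one that protects killers from granzyme B, stood at 235-fold, and Trdv4, a variable segment of the T cell receptor delta chain, at 177-fold. Cd200r2 stood at 143-fold, and the rule genes Ncr1, Klrb1c and Klre1 stood at 401-, 126- and 121-fold. The rank took genes with at least 50 UMIs in members, and Klri2 (1, 4, 61 and 1 UMIs by library), Klrb1b (4, 10, 69 and 0), Klra3 (9, 15, 50 and 2) and Klra8 (15, 5, 74 and 3) reached this only through TAZKO. Klrc3 (27, 39, 11 and 11 UMIs), Serpinb9b and Cd200r2 reached it only through YAPKO. Serpinb9b had 66 UMIs, at 26.8, 66.2, 24.7 and 17.9 CPM by library. Cd200r2 had 68 UMIs, at 42.1, 52.1, 27.8 and 49.3 CPM.

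Gzma, a granzyme and the marker that the rule did not use, had UMIs in 50 of 63 WT members (79.4%), 90 of 154 in YAPKO (58.4%), 64 of 87 in TAZKO (73.6%) and 16 of 53 in DKO (30.2%). Among T cells of the same libraries, 3.17%, 2.76%, 2.63% and 1.78% had a Gzma UMI. The share was high in members of 3 libraries and low in DKO, and it was 73.0%, 53.9%, 69.0% and 26.4% with every member thinned to 1000 UMIs.

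Members were then set against T cells, the most similar lymphocytes, gated by at least 2 UMIs of Cd3e and Cd3d and none of Ncr1, Klre1, Klrb1c, Cd79a or Clec4f. UMIs were summed per library and cell type and fitted with the library as a block, and genes of either gate were left out of counts. Of 8067 genes, 391 were higher in members (4.85%) and 434 higher in T cells (5.38%) at an edgeR adjusted p of at most 0.05, and the median log2 fold change was 0.02. All 13 tested genes of the list of NK and ILC1 identity were higher in members (median 3.05), as were all 6 tested Ly49 receptors (median 5.80) and 13 of 17 cytotoxic effectors (median 1.43), with none lower. Of 11 T cell markers, 10 were lower (median -5.21). Genes of gates and of lists that cells were chosen to have or lack move with that choice, so these counts describe the members. Without the library block the counts were 243 and 257, and without a filter on low counts 745 genes were higher in T cells.

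Gzma stood at 8749.6 CPM in WT, 7213 in YAPKO, 5130.3 in TAZKO and 1223 in DKO, against 356, 34.4, 86.6 and 45.1 in T cells (log2 fold change 5.56, standard error 0.47, edgeR adjusted p = 4.6e-05, higher in 4 of 4 libraries). Tyrobp, the gene of the signalling adaptor DAP12, stood at 3426 CPM in WT, 3577 in YAPKO, 2919 in TAZKO and 2348 in DKO, against 177, 270.2, 49.9 and 300.2 in T cells (log2 fold change 4.03, standard error 0.39, edgeR adjusted p = 1.0e-04, higher in 4 of 4 libraries). Fcer1g, the gene of the other adaptor of activating receptors, stood at 3323 CPM in WT, 3781 in YAPKO, 2783 in TAZKO and 2307 in DKO, against 149, 258, 39.8 and 211 in T cells (log2 fold change 4.29, standard error 0.37, edgeR adjusted p = 5.3e-05, higher in 4 of 4 libraries). These genes were high in the members of every library and low in T cells. Among transcription factors, Eomes stood at 107 CPM in WT, 74.7 in YAPKO, 154 in TAZKO and 26.9 in DKO, against 7.02, 9.73, 7.51 and 15.2 in T cells (log2 fold change 2.98, standard error 0.43, edgeR adjusted p = 0.00128, higher in 4 of 4 libraries), and T-bet (Tbx21) at 49.7 CPM in WT, 83.1 in YAPKO, 92.7 in TAZKO and 89.6 in DKO, against 23.4, 20.2, 37.1 and 27.4 in T cells (log2 fold change 1.47, standard error 0.21, edgeR adjusted p = 0.00101, higher in 4 of 4 libraries). In the opposite direction, Tcf7, a factor of T cells and young lymphocytes, stood at 11.5 CPM in WT, 53.6 in YAPKO, 80.3 in TAZKO and 80.6 in DKO, against 219, 211, 309.7 and 184 in T cells (log2 fold change -2.18, standard error 0.28, edgeR adjusted p = 5.9e-04, lower in 4 of 4 libraries). S1pr1, the receptor that lets lymphocytes leave tissues, stood at 11.5 CPM in WT, 21.1 in YAPKO, 34.0 in TAZKO and 26.9 in DKO, against 93.5, 136, 163 and 78.4 in T cells (log2 fold change -2.54, standard error 0.22, edgeR adjusted p = 5.3e-05, lower in 4 of 4 libraries). The constant segment of the T cell receptor alpha chain, Trac, was near 0 in members at 11.5 CPM in WT, 32.4 in YAPKO, 3.09 in TAZKO and 22.4 in DKO, against 657, 718, 539 and 632 in T cells (log2 fold change -5.21, standard error 0.27, edgeR adjusted p = 1.8e-06, lower in 4 of 4 libraries). Cma1 had 187 UMIs in members and 0 in T cells, at least 383-fold higher with T cells set at 3 UMIs over all libraries.

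In the other lists, members were higher than T cells for 14 of 23 conventional NK genes with 1 lower, 8 of 23 ILC1 and residency genes with 11 lower, 13 of 21 transcription factors with 3 lower, and 11 of 16 other NK receptors with 1 lower. Adaptors had 4 higher and 2 lower of 13, cytokines and chemokines 3 and 1 of 10, cytokine receptors 6 and 2 of 15, and homing and adhesion genes 8 and 4 of 20. The lists were made to mark NK cells, the T cell gate left out cells with UMIs of the rule genes, and the counts were not compared by a test. Immediate early and heat shock genes had 1 and 1 of 16, cell division genes 0 and 1 of 14, and interferon-inducible genes 0 and 4 of 15. With DESeq2 there were 8 and 9 ILC1 and residency genes, 9 and 1 transcription factors and 12 and 1 other NK receptors. It called 4 and 1 cytokine receptors, 6 and 4 homing and adhesion genes and 1 and 0 immediate early and heat shock genes. Cell division genes had 0 and 2 by that tool, and interferon-inducible genes 0 and 2. Among markers of other cells, edgeR and DESeq2 called 0 of 25 hepatocyte markers in either direction (median 0.46; 3 higher at an unadjusted edgeR p under 0.05). Of 4 Kupffer cell markers, 1 was lower with edgeR and 0 with DESeq2. Either tool gave 1 higher and 1 lower of 6 neutrophil and monocyte markers and 1 lower of 2 dendritic and basophil markers. Of 2 endothelial markers, 1 B cell marker and 1 marker of other innate lymphocytes tested, 0 were called by either tool, with 1 B cell marker lower at an unadjusted edgeR p under 0.05.

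Markers of other cells in members are given as sums over each list, and the most abundant gene named is that of all libraries pooled. The 25 listed hepatocyte markers all had UMIs. They summed to 61740 CPM in WT, 6054 in YAPKO, 24873 in TAZKO and 57713 in DKO, with Mup20 the most abundant. In DKO, Alb had 2138 UMIs and Mup20 1451. The median share of these markers in a member was 1.95% in WT and 0.469% in DKO. The DKO sum was thus not that of a typical member. T cell markers summed to 1732 CPM in WT, 1964 in YAPKO, 1686 in TAZKO and 1931 in DKO, with 6, 7, 7 and 7 of its 13 genes at 0 and the most abundant Trbc2, a constant segment of the T cell receptor beta chain that ILC also transcribe. Cd3e and Cd3d were at 0 by the rule, Cd8a, Cd8b1, Cd5 and Cd6 had 0 UMIs in members, Cd4 had 1 and Trac had 3, 23, 1 and 5. B cell markers summed to 157 CPM in WT, 141 in YAPKO, 136 in TAZKO and 116 in DKO, with 6, 5, 6 and 6 of its 8 genes at 0 and Ighm the most abundant; among those at 0 were Ms4a1, Pax5, Ebf1 and, by the rule, Cd79a. Kupffer cell markers summed to 130.0, 67.6, 52.5 and 89.6 CPM (3, 1, 4 and 4 of its 10 genes at 0, most abundant C1qb, Clec4f at 0 by the rule), and endothelial markers to 119, 107, 83.4 and 129.9 CPM (2, 3, 6 and 4 of its 12 genes at 0, most abundant Pecam1). In DKO, C1qb had 3 UMIs against 6 of C1qa and 5 of C1qc, and Pecam1 had 7 against 9 of Dnase1l3. Markers of neutrophils and monocytes summed to 658, 1296, 686 and 1116 CPM (2, 0, 4 and 0 of its 8 genes at 0, most abundant Ly6c2, which NK cells also make). In DKO, S100a8 and S100a9 had 67 UMIs each, every gene in 1 cell, and Ly6c2 had 19. Those of dendritic cells and basophils summed to 164, 31.0, 34.0 and 62.7 CPM (7, 5, 6 and 6 of its 9 genes at 0, most abundant Cd209a). The 42 Cd209a UMIs of WT and the 14 of YAPKO lay in 1 cell per library. DKO had 0 UMIs of Cd209a and 7, 4 and 3 of Xcr1, Clec9a and Flt3. Markers of type 2 and type 3 innate lymphocytes summed to 57.4, 62.0, 80.3 and 94.1 CPM (7, 6, 7 and 6 of its 8 genes at 0, most abundant Gata3), with Il1rl1, Il13, Il5, Il22 and Il17a at 0. The part of these transcripts in the results below was not tested.

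At the threshold of the rule, the 23 members with a sum of 2 (3, 5, 6 and 9 by library) had Gzma at 1700.1 CPM and Ccl5 at 4856 CPM. The 67 cells just outside, with a sum of 1 (7, 13, 19 and 28), had 341 and 995 CPM, and the 334 members with a sum of 3 or more had 6603 and 12462 CPM. Members at the threshold thus stood between the cells outside and the other members, and 9 of the 53 DKO members were among them. A further 325 cells met the threshold but had a UMI of Cd3e or Cd3d, with Gzma at 1375 CPM and Trac at 469 CPM. Another 22 cells had a UMI of Cd79a or Clec4f, with Gzma at 6582 CPM, and 19 had 0.2% or more endothelial UMIs. Without the limits on genes and mitochondrial UMIs, 360 barcodes would have passed.

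Members made up 0.881% of kept cells in WT (95% interval 0.677 to 1.13), 2.45% in YAPKO (2.09 to 2.87), 1.01% in TAZKO (0.807 to 1.24) and 0.639% in DKO (0.479 to 0.835). Among lymphocytes, counted as members, T cells and B cells, they were 8.73% (6.77 to 11.03), 14.9% (12.8 to 17.2), 7.63% (6.16 to 9.33) and 4.76% (3.59 to 6.18). YAPKO was highest and DKO lowest on both scales. The share of kept cells depends on how hepatocytes and other cells were mixed and filtered: with the limits of 500 to 6000 read as UMIs it was 0.571% in WT, 4.12% in YAPKO, 0.716% in TAZKO and 1.01% in DKO, which put DKO above WT. With cells thinned to 1000 UMIs before the rule it was 0.574%, 1.87%, 0.791% and 0.328%.

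**Figure D1:**
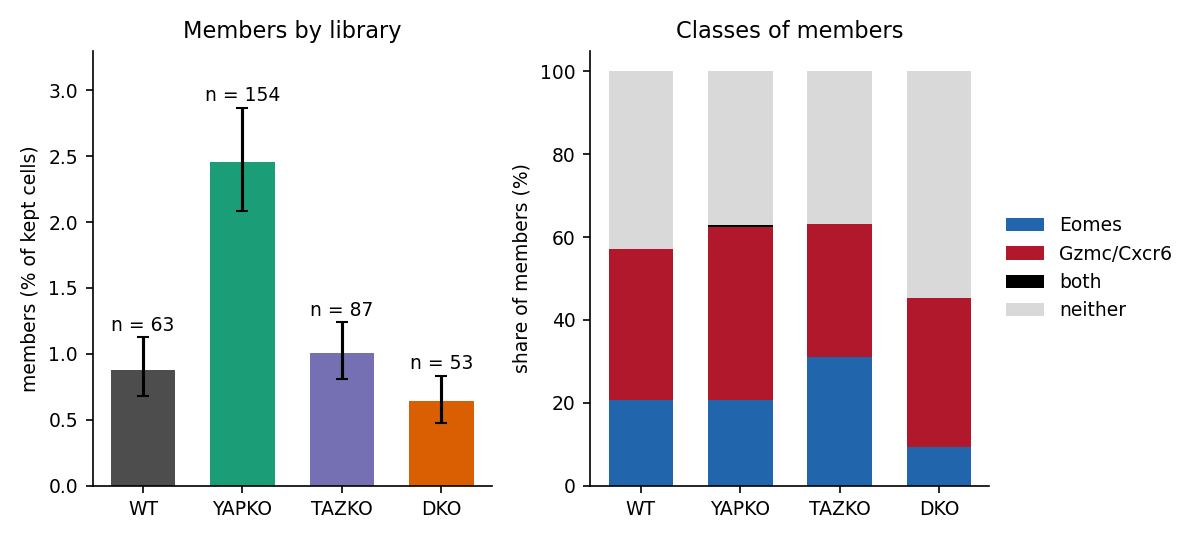
Members as a percent of kept cells (left) and classes of members as a percent of members (right), by library. Error bars on the left are exact 95% intervals of counting error, and YAPKO had the highest share of members (2.45%) and DKO the lowest share of the Eomes class (9.43%).

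Members were split by the genes that mark the 2 kinds of liver group 1 lymphocytes. The Eomes class had at least 1 Eomes UMI and none of Gzmc and Cxcr6, and the Gzmc/Cxcr6 class at least 1 UMI of Gzmc or Cxcr6 and none of Eomes. Of 357 members, 77 were in the Eomes class (13, 32, 27 and 5 by library), 134 in the Gzmc/Cxcr6 class (23, 64, 28 and 19), 1 had both (in YAPKO) and 145 had neither (27, 57, 32 and 29). Eomes was seen in 78 members, Gzmc in 45 and Cxcr6 in 110, and 20 members had UMIs of Gzmc and Cxcr6.

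The Eomes class was 20.6% of members in WT (11.5 to 32.7), 20.8% in YAPKO (14.7 to 28.0), 31.0% in TAZKO (21.5 to 41.9) and 9.43% in DKO (3.13 to 20.7). The Gzmc/Cxcr6 class was 36.5% (24.7 to 49.6), 41.6% (33.7 to 49.8), 32.2% (22.6 to 43.1) and 35.8% (23.1 to 50.2). The intervals of all 4 libraries overlapped for the Gzmc/Cxcr6 class, and the interval of the Eomes class in DKO lay below that in TAZKO before thinning only. A class needs a captured UMI and so depends on depth: with members thinned to 1000 UMIs, the Eomes class was 11.1%, 5.84%, 17.2% and 5.66% (1.18 to 15.7 in DKO and 9.98 to 26.8 in TAZKO, which overlap), and the Gzmc/Cxcr6 class 19.0%, 22.7%, 12.6% and 15.1%. With Gzmc alone in place of both genes, the second class was 14.3%, 15.6%, 6.90% and 9.43%.

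The 2 classes differed in many genes in the same direction in all 4 mice. UMIs were summed per library and class and fitted with the library as a block, leaving out Eomes, Gzmc and Cxcr6. Of 1449 genes, 59 were higher in the Eomes class (4.07%) and 74 higher in the Gzmc/Cxcr6 class (5.11%) at an edgeR adjusted p of at most 0.05, and the median log2 fold change was -0.00145. Of these, 54 and 64 had the same direction in all 4 libraries. The counts were 37 and 34 without WT and 29 and 40 without YAPKO, 37 and 44 with DESeq2, 24 and 20 without the library block, and 36 and 23 with members thinned to 1000 UMIs. With Gzmc alone for the second class they were 35 and 28, and with no filter on low counts 179 genes were higher in the Gzmc/Cxcr6 class.

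Of 4 Ly49 receptors tested 3 were higher in the Eomes class and 1 lower, and of 11 homing and adhesion genes 3 were higher and 2 lower. Itga4, an alpha chain of the integrin that binds VCAM, stood at 678, 681, 958 and 1426 CPM in the Eomes class and 86.2, 78.1, 100.1 and 100.3 in the Gzmc/Cxcr6 class (log2 fold change 3.16, standard error 0.22, edgeR adjusted p = 2.7e-08, higher in 4 of 4 libraries). Klra4, the gene of the receptor Ly49D, stood at 1575, 1061, 1005 and 1222 CPM in the Eomes class and 17.2, 49.996, 0 and 113 in the Gzmc/Cxcr6 class (log2 fold change 4.76, standard error 0.36, edgeR adjusted p = 3.9e-08, higher in 4 of 4 libraries). Among the other Ly49 genes, Klra7 stood at 319, 464, 397 and 509 CPM in the Eomes class and 17.2, 28.1, 0 and 62.7 in the Gzmc/Cxcr6 class (log2 fold change 4.04, standard error 0.39, edgeR adjusted p = 6.9e-07, higher in 4 of 4 libraries), and the pseudogene Klra13-ps at 159.5, 356, 1005 and 509 CPM in the Eomes class and 51.7, 25.0, 0 and 25.1 in the Gzmc/Cxcr6 class (log2 fold change 4.03, standard error 0.47, edgeR adjusted p = 8.1e-06, higher in 4 of 4 libraries). Klra4, Klra7 and Klra13-ps had 0 UMIs in the Gzmc/Cxcr6 class of at least 1 library and were high in the Eomes class of all 4. Sh2d1a, the gene of the adaptor SAP of SLAM family receptors, stood at 359, 356, 234 and 407 CPM in the Eomes class and 8.62, 25.0, 18.2 and 0 in the Gzmc/Cxcr6 class (log2 fold change 4.15, standard error 0.42, edgeR adjusted p = 1.4e-06, higher in 4 of 4 libraries).

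Of the cytotoxic effectors 4 of 14 tested were higher in the Eomes class and 2 lower, and of the transcription factors 3 of 8 were higher and 1 lower. Prf1, the gene of perforin, stood at 937, 898, 794 and 1018 CPM in the Eomes class and 103, 125, 81.9 and 125 in the Gzmc/Cxcr6 class (log2 fold change 2.96, standard error 0.21, edgeR adjusted p = 3.2e-08, higher in 4 of 4 libraries). Gzma stood at 13758, 11149, 9871 and 10389 CPM in the Eomes class and 3499, 2019, 2466 and 376 in the Gzmc/Cxcr6 class (log2 fold change 2.52, standard error 0.26, edgeR adjusted p = 1.6e-06, higher in 4 of 4 libraries). Cma1 stood at 459, 193, 234 and 204 CPM in the Eomes class and had 0 UMIs in the Gzmc/Cxcr6 class of every library, 77 UMIs against 0, at least 51.6-fold higher with the second class set at 3 UMIs over all libraries. The granule genes Prf1, Gzma and Cma1 thus stood higher in the Eomes class of each library. Klf2, a transcription factor that keeps lymphocytes in circulation, stood at 977, 645, 526 and 509 CPM in the Eomes class and 25.9, 31.2, 18.2 and 12.5 in the Gzmc/Cxcr6 class (log2 fold change 4.62, standard error 0.28, edgeR adjusted p = 6.0e-09, higher in 4 of 4 libraries). Zeb2, a factor of late NK cell maturation, stood at 179, 169, 607 and 204 CPM in the Eomes class and 17.2, 12.5, 0 and 0 in the Gzmc/Cxcr6 class (log2 fold change 4.53, standard error 0.53, edgeR adjusted p = 8.1e-06, higher in 4 of 4 libraries). Irf8, a factor of NK cell and myeloid development, was also higher (log2 fold change 2.42, standard error 0.31, edgeR adjusted p = 3.1e-05, higher in 4 of 4 libraries). Nkg7, the gene of a granule membrane protein, stood at 4347, 4695, 3539.6 and 2750.1 CPM in the Eomes class and 1948, 2722, 1656 and 1743 in the Gzmc/Cxcr6 class (log2 fold change 0.88, standard error 0.14, edgeR adjusted p = 2.4e-04, higher in 4 of 4 libraries), and DESeq2 did not call it (adjusted p = 0.0868).

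**Figure D2:**
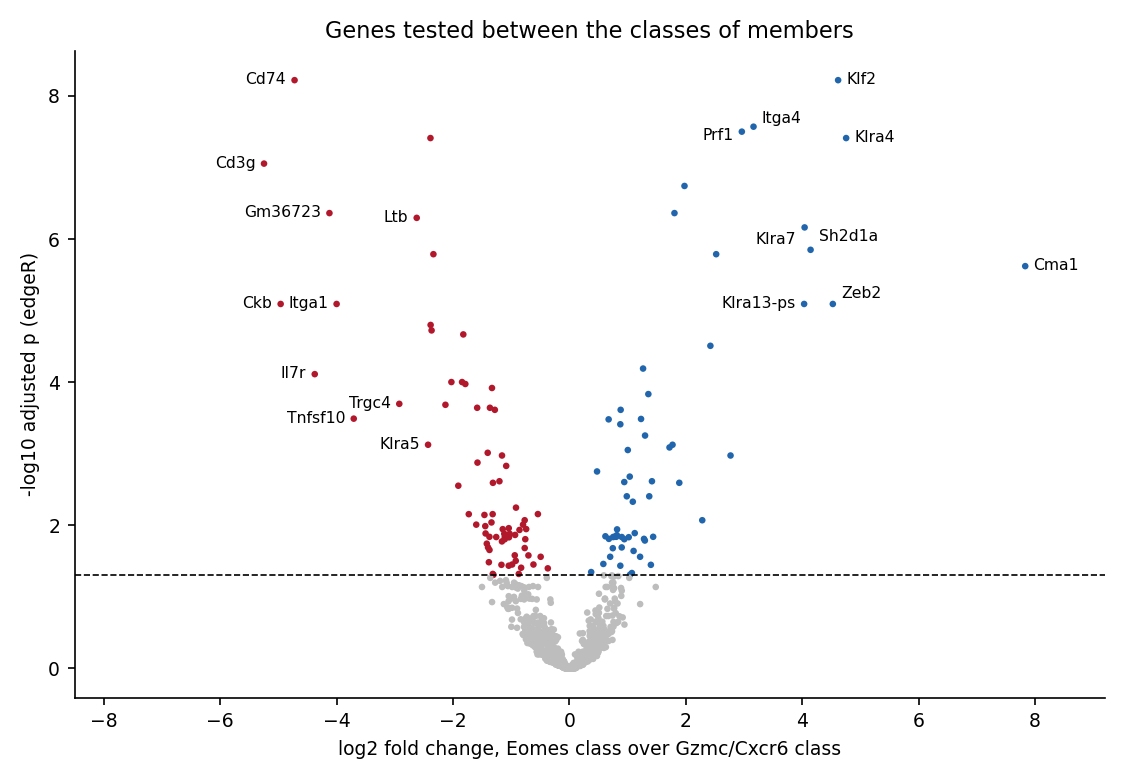
Log2 fold change of the Eomes class over the Gzmc/Cxcr6 class (horizontal) and edgeR adjusted p (vertical, -log10) of genes tested, with genes past the dashed line coloured and named genes labelled. Klf2 (4.62), Prf1 (2.96) and Itga4 (3.16) stood out upward and Cd3g (-5.25) downward, with Cd74 (-4.72) from few cells.

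The promoter of Nkg7 is shown as the only promoter among genes higher in the Eomes class that held the letters that T-box factors such as Eomes and T-bet are known to bind. RefSeq promoters of 300 bases (GRCm38.p6) were found for 46 of the 59 genes higher in the Eomes class and 54 of the 74 higher in the Gzmc/Cxcr6 class, and AGGTGTGA was searched on both strands. The letters occurred in 419 of 32851 promoters (1.28%), in 10 of 1484 (0.674%) of those of tested genes, in 1 of 65 (1.54%) of those of genes higher in the Eomes class and in 0 of 69 of the other class. The match, in capitals, stands in the + strand sequence at chr7:43436888-43437187 with its first base 14 before the start of transcription, and is a description of these letters only.

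Nkg7: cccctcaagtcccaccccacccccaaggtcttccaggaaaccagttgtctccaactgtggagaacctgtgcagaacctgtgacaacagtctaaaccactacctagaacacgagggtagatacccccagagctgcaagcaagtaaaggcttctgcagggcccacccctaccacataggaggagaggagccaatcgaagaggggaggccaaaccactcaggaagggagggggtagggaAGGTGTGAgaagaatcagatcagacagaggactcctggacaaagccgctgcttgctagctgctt

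Of 9 ILC1 and residency genes tested, 8 were higher in the Gzmc/Cxcr6 class and 1 lower. Itga1, the gene of CD49a, stood at 0, 24.1, 11.7 and 0 CPM in the Eomes class and 215, 234, 355 and 251 in the Gzmc/Cxcr6 class (log2 fold change -3.999, standard error 0.46, edgeR adjusted p = 8.1e-06, lower in 4 of 4 libraries). Il7r, the receptor of interleukin 7, stood at 0, 0, 46.7 and 0 CPM in the Eomes class and 267, 362, 155 and 351 in the Gzmc/Cxcr6 class (log2 fold change -4.37, standard error 0.61, edgeR adjusted p = 7.7e-05, lower in 4 of 4 libraries). In T cells Il7r stood at 619, 709, 581 and 749.7 CPM. Tnfsf10, the gene of the death ligand TRAIL, stood at 0, 24.1, 0 and 0 CPM in the Eomes class and 147, 134, 282 and 138 in the Gzmc/Cxcr6 class (log2 fold change -3.70, standard error 0.60, edgeR adjusted p = 3.2e-04, lower in 4 of 4 libraries). These 3 genes, all known from liver ILC1, had 0 UMIs in the Eomes class of at least 2 libraries. Ltb, a subunit of lymphotoxin, stood at 119.6, 127, 93.5 and 306 CPM in the Eomes class and 836, 841, 564 and 727 in the Gzmc/Cxcr6 class (log2 fold change -2.62, standard error 0.24, edgeR adjusted p = 5.1e-07, lower in 4 of 4 libraries). In T cells Ltb stood at 711, 692, 594 and 672 CPM. Xcl1, a chemokine that draws cross-presenting dendritic cells, stood at 459, 439.9, 561 and 204 CPM in the Eomes class and 1784, 2228, 3394 and 1366 in the Gzmc/Cxcr6 class (log2 fold change -2.39, standard error 0.18, edgeR adjusted p = 3.9e-08, lower in 4 of 4 libraries). Ckb, the brain isoform of creatine kinase, stood at 0, 12.1, 0 and 0 CPM in the Eomes class and 215, 278, 136 and 150.4 in the Gzmc/Cxcr6 class (log2 fold change -4.96, standard error 0.58, edgeR adjusted p = 8.1e-06, lower in 4 of 4 libraries), and the uncharacterised gene Gm36723 at 39.9, 36.2, 0 and 0 CPM in the Eomes class and 422, 622, 191 and 138 in the Gzmc/Cxcr6 class (log2 fold change -4.12, standard error 0.38, edgeR adjusted p = 4.3e-07, lower in 4 of 4 libraries). Klra5, a Ly49 gene that went against the 3 others tested, stood at 159.5, 6.03, 23.4 and 0 CPM in the Eomes class and 491, 103, 118 and 451 in the Gzmc/Cxcr6 class (log2 fold change -2.43, standard error 0.42, edgeR adjusted p = 7.5e-04, lower in 4 of 4 libraries).

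Some transcripts of T cell receptor parts were also on the side of the Gzmc/Cxcr6 class. Cd3g, a CD3 subunit that the rule did not use, stood at 0, 48.2, 0 and 0 CPM in the Eomes class and 1077, 791, 1137 and 1429 in the Gzmc/Cxcr6 class (log2 fold change -5.25, standard error 0.42, edgeR adjusted p = 8.8e-08, lower in 4 of 4 libraries). In T cells Cd3g stood at 1403, 1308, 865 and 1124 CPM. Trgc4, a constant segment of the gamma chain, stood at 0, 54.2, 11.7 and 0 CPM in the Eomes class and 189.6, 306, 127 and 176 in the Gzmc/Cxcr6 class (log2 fold change -2.92, standard error 0.45, edgeR adjusted p = 2.0e-04, lower in 4 of 4 libraries). In T cells Trgc4 stood at 76.4, 45.7, 39.8 and 37.1 CPM. Of the T cell markers, all 3 tested were called on this side, with Trbc1 (log2 fold change -1.36, standard error 0.21, edgeR adjusted p = 2.3e-04, lower in 4 of 4 libraries) and Trbc2 (log2 fold change -1.16, standard error 0.21, edgeR adjusted p = 0.00106, lower in 4 of 4 libraries) beside Cd3g. The summed T cell markers were 738, 1085, 841 and 1120.4 CPM in the Eomes class and 2534, 2809, 3021 and 2783 CPM in the Gzmc/Cxcr6 class, while Cd8a, Cd8b1, Cd5 and Cd6 had 0 UMIs in members. Trdc, too low for the fit, went the other way in TAZKO and DKO. It had 5 UMIs in the Eomes class and 1 in the Gzmc/Cxcr6 class of TAZKO, and 1 and 3 in WT. DKO had 6 and 4, from 9818 and 79764 UMIs in all. Cd74, the invariant chain of antigen presentation, stood at 119.6, 42.2, 0 and 306 CPM in the Eomes class and 2887, 1516, 9.10 and 3309.8 in the Gzmc/Cxcr6 class (log2 fold change -4.72, standard error 0.28, edgeR adjusted p = 6.0e-09, lower in 4 of 4 libraries). This call rests on 3 cells. Of its UMIs in the Gzmc/Cxcr6 class, 327 of 335 in WT, 471 of 485 in YAPKO and 261 of 264 in DKO lay in 1 cell per library. It was also the cell with most Cd209a in WT and YAPKO and with most Cxcl9 in DKO. Without these cells and, in DKO, the cell with most S100a8, which had 0 UMIs of Cd74, the level in this class was 78.6, 46.3 and 49.3 CPM. Without the library block the fit no longer called Cd74 and Klra5.

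**Figure D3:**
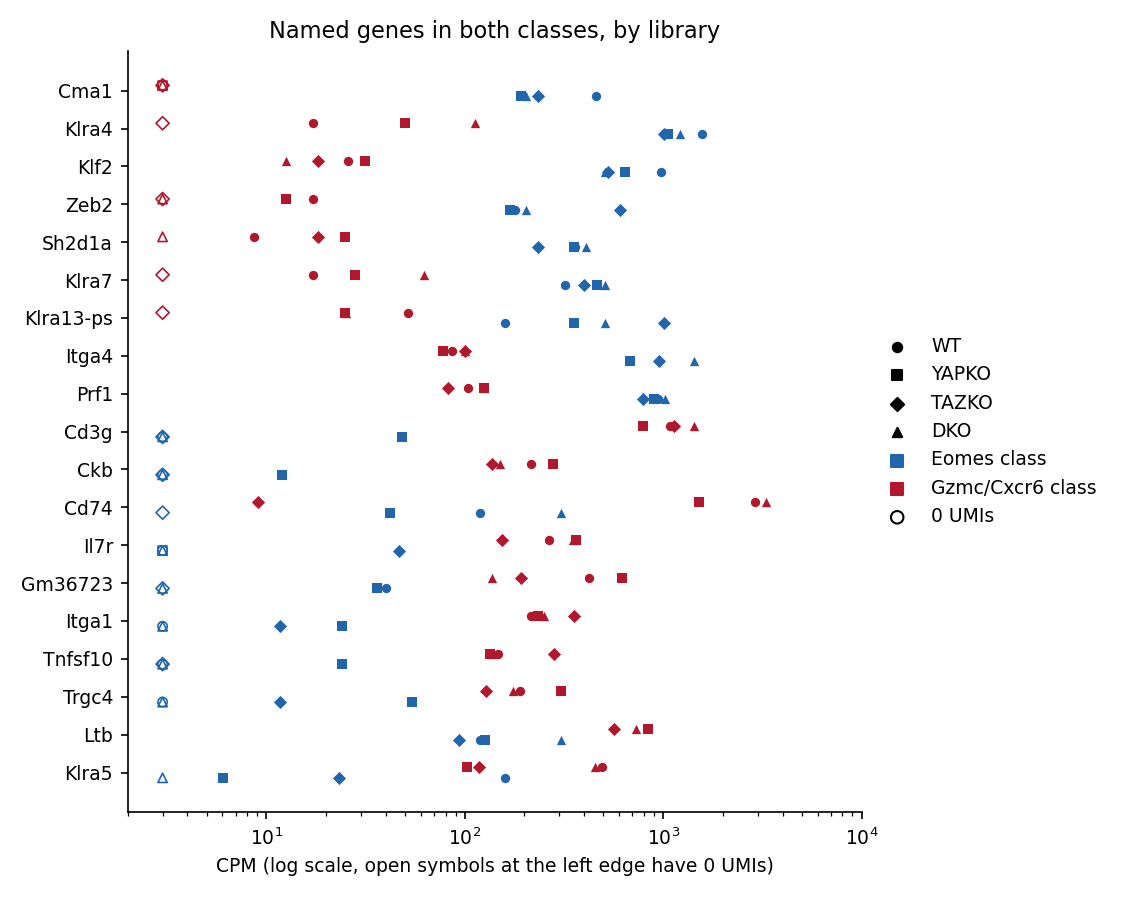
Level (CPM, log scale) of 19 named genes in the Eomes and Gzmc/Cxcr6 classes of each library, without error bars and with open symbols for 0 UMIs. Klf2 stood at 509 CPM or more in the Eomes class and at 31.2 CPM or less in the other class in all 4 libraries, while Cd3g stood at 48.2 CPM or less and 791 CPM or more.

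By lists, conventional NK genes lay on the side of the Eomes class, with 12 higher and 1 lower (Gzmb) of 15 tested among 27 listed (median 2.52). ILC1 and residency genes lay on the other side, with 1 higher (Ctla2a) and 8 lower of 9 tested among 24 listed (median -3.70). Over all tested genes, 4.07% were higher in the Eomes class and 5.11% higher in the Gzmc/Cxcr6 class. The lists were made to mark these 2 kinds of cell, and 11 and 13 of their genes were too low for the fit. Genes low in 1 class entered only by being high in the other, so these counts are a description. Of the Ly49 receptors tested, 3 were higher in the Eomes class and 1 lower of 4 (median 4.04), and the whole list summed to 2991, 2513, 3692 and 2546 CPM against 681, 312, 200.2 and 827 CPM. Cytotoxic effectors were split: Prf1, Gzma, Nkg7 and Serpinb9 were higher and Tnfsf10 and Gzmb lower, of 14 tested (median 0.22). Gzmb, the gene of granzyme B, stood at 2911, 928, 479 and 204 CPM in the Eomes class and 2008, 2415, 1592 and 1918 in the Gzmc/Cxcr6 class (log2 fold change -1.04, standard error 0.30, edgeR adjusted p = 0.0367, lower in 3 of 4 libraries), with WT in the opposite direction, and DESeq2 did not call it (adjusted p = 0.230).

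Transcription factors had 3 higher (Klf2, Zeb2, Irf8) and 1 lower (Id2, a factor that all innate lymphocytes need; log2 fold change -0.80, standard error 0.19, edgeR adjusted p = 0.00979, lower in 4 of 4 libraries) of 8 tested. Without the 3 genes of the rule, NK and ILC1 identity genes had 4 higher and 2 lower of 12 tested, homing and adhesion genes 3 and 2 of 11, adaptors 2 and 0 of 8, and other NK receptors 0 and 2 of 9. Ncr1, which helped choose the members, was close to equal in both classes (log2 fold change 0.06). The other rule genes were higher in the Eomes class, Klre1 by 0.81 (edgeR adjusted p = 0.0145) and Klrb1c by 1.07 (edgeR adjusted p = 0.0464). DESeq2 called neither of these (adjusted p = 0.234 and 0.300). Cytokines and chemokines had 1 higher (Ccl5) and 2 lower of 4, and cytokine receptors 2 and 1 of 6. Ccl5, a chemokine of killer lymphocytes, stood at 15652, 11878, 17768 and 16602 CPM in the Eomes class and 9619, 9437, 13376 and 9591 in the Gzmc/Cxcr6 class (log2 fold change 0.48, standard error 0.09, edgeR adjusted p = 0.00177, higher in 4 of 4 libraries). DESeq2 called neither Ccl5 (adjusted p = 0.322) nor Id2 (adjusted p = 0.0568), and of the identity genes higher in the Eomes class it called Prf1 and Gzma only. With DESeq2 the counts were 10 and 0 for conventional NK genes, 2 and 1 for cytotoxic effectors, 2 and 2 for homing and adhesion genes, 1 and 0 for adaptors and 1 and 1 for cytokine receptors. Interferon-inducible genes had 0 higher and 1 lower of 4 (0 and 0 with DESeq2), and neutrophil and monocyte markers 1 higher (Ly6c2) of 2. At an edgeR adjusted p of at most 0.05, 0 of 7 immediate early and heat shock genes, 0 of 2 cell division genes and 0 of 1 B cell marker were called. DESeq2 called 0 of these too, and at an unadjusted edgeR p under 0.05 they were 2 of 7, 1 of 2 and 0 of 1. Hippo effectors and markers of endothelial cells, Kupffer cells, other innate lymphocytes and dendritic cells had no gene tested.

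Hepatocyte transcripts differed between the classes as well: 17 of 23 hepatocyte markers were higher in the Gzmc/Cxcr6 class with edgeR (median -1.06) and 1 of 23 with DESeq2. Their sums were 28992, 3519.5, 18236 and 6417 CPM in the Eomes class and 98257, 5015, 20709 and 34690 CPM in the Gzmc/Cxcr6 class. Of the 74 genes called on the side of the Gzmc/Cxcr6 class, 33 were lower in members than in other kept cells, against 5 of the 59 on the side of the Eomes class. What part these transcripts had in the calls was not tested.

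Members of each knockout library were next set beside those of WT, for genes with at least 20 UMIs over both. Genes low in WT could enter only by being high in the other library, and genes low there only by being high in WT. Counts of higher and lower genes in the lists thus describe these genes and are not read as shares. Past the fold means a ratio of at least 2 in either direction with an interval that leaves out equal levels. In YAPKO, 216 of 5646 genes were higher (3.83%) and 197 lower (3.49%), with a median log2 ratio of 0.14. In TAZKO, 344 of 4254 were higher (8.09%) and 178 lower (4.18%), with a median of 0.11, and in DKO 301 of 3612 were higher (8.33%) and 136 lower (3.77%), with a median of 0.08. Small numbers of cells carry such counts: at least 50% of the UMIs lay in 1 cell for 7 of the higher and 15 of the lower genes in YAPKO, 2 and 7 in TAZKO, and 86 and 7 in DKO. With members taken from a sum of at least 3 UMIs of the rule genes, 152 genes were higher in DKO. The same fold was passed in all other kept cells for 9 and 20, 56 and 21, and 40 and 25 of these genes.

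In DKO, 5 of 15 cytotoxic effectors compared were past the fold and lower (Gzma, Gzmb, Gzmc, Prf1 and Cst7), beside 3.77% of all genes, and none higher, beside 8.33%. Gzma stood at 8749.6 CPM in WT, 7213 in YAPKO, 5130.3 in TAZKO and 1223 in DKO, a log2 ratio to WT of -2.84 (-3.03 to -2.66) in DKO. Prf1 stood at 532, 493, 389 and 179 CPM in the same order, with -1.57 (-2.11 to -1.05). Gzmb stood at 2168, 1705, 818 and 842 CPM, with -1.36 (-1.61 to -1.12) in DKO and -1.41 (-1.62 to -1.19) in TAZKO. Over all members DKO was lowest for Gzma and Prf1, while Gzmb was low in TAZKO and DKO alike. The list had a median of -0.75 in DKO and summed to 18543 CPM in WT, 17914 in YAPKO, 11734 in TAZKO and 7132 in DKO. Nkg7 stood at 3017, 3595, 2326 and 1555 CPM, with -0.96 (-1.14 to -0.77) in DKO, short of the fold.

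The low Gzma of DKO was not shared by its classes to the same degree. In the Eomes class Gzma stood at 13758, 11149, 9871 and 10389 CPM by library, and the log2 ratio of DKO to WT was -0.41 (-0.72 to -0.10). In the Gzmc/Cxcr6 class it stood at 3499, 2019, 2466 and 376 CPM, with -3.22 (-3.80 to -2.68), and in members of neither class at 12505, 11439, 4249 and 1055 CPM. For Gzma the 5 Eomes class members of DKO thus stood nearer to WT than its Gzmc/Cxcr6 class. Gzmb went the other way, with -3.84 (-6.90 to -1.96) in the Eomes class, from 2 UMIs against 146, and -0.07 (-0.37 to 0.23) in the Gzmc/Cxcr6 class. Prf1 was not past the fold in either class, with 0.12 (-1.03 to 1.12) and 0.28 (-1.09 to 1.61). Leaving out the cell with the most Gzma in each library gave a log2 ratio of -3.10. In all other kept cells Gzma stood at 39.7, 31.7, 16.9 and 10.6 CPM.

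Ccl5 was low in DKO as well, at 13545 CPM in WT, 11953 in YAPKO, 13485 in TAZKO and 6577 in DKO, a log2 ratio of -1.04 (-1.13 to -0.95) in DKO. In the Eomes class alone that ratio was 0.085 (-0.17 to 0.33), with 15652, 11878, 17768 and 16602 CPM by library, an interval that covers equal levels. In the Gzmc/Cxcr6 class Ccl5 stood at 9619, 9437, 13376 and 9591 CPM and in members of neither class at 17215, 15360, 10720 and 4041 CPM. Ccl5 was thus low in DKO members of neither class, while both classes were near WT. The Eomes class, which was high in Ccl5, held 50152 of 261498 member UMIs in WT and 9818 of 223208 in DKO. What part these class shares had in the low level over all members was not tested. Ccl3, a chemokine of activated NK cells, stood at 95.6, 63.4, 111 and 26.9 CPM in the 4 libraries, with -1.83 (-3.41 to -0.51) in DKO, and Ifng, the gene of interferon gamma, at 53.5, 32.4, 74.1 and 22.4 CPM. Of 6 cytokines and chemokines compared, Ccl3 and Ccl5 were past the fold and lower in DKO, and the list summed to 15939, 14582, 16203 and 8597 CPM.

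**Figure D4:**
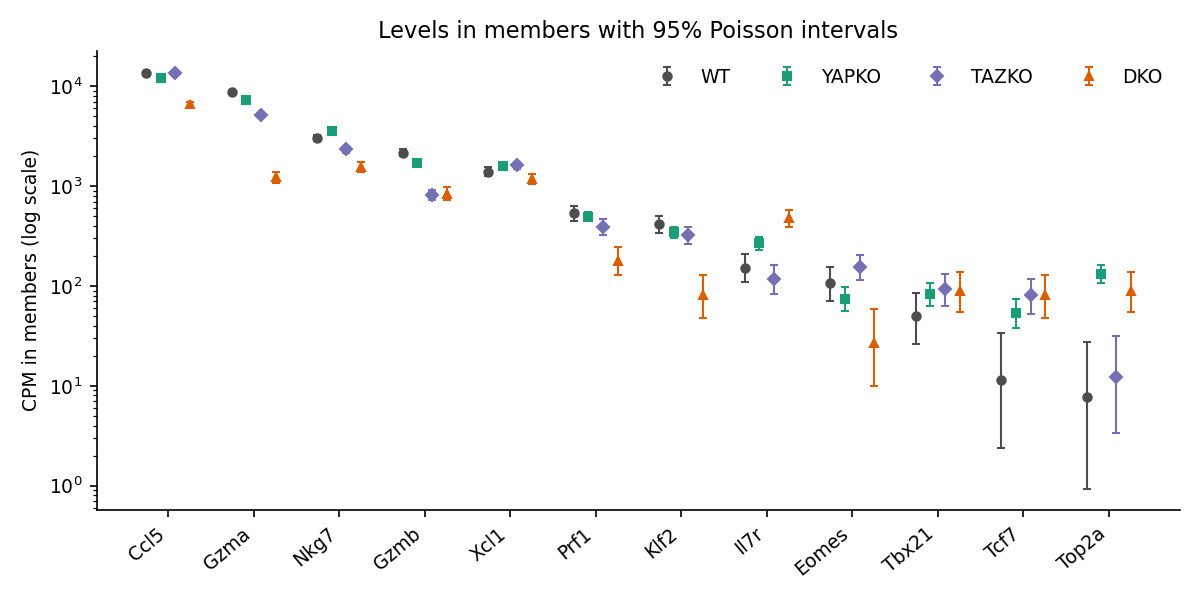
Level (CPM, log scale) of 12 genes in members of each library, with exact Poisson intervals of counting error. Gzma stood at 8749.6 CPM in WT and 1223 CPM in DKO, and Il7r stood at 475 CPM in DKO against 153 CPM in WT.

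Conventional NK genes had 11 of 19 lower in DKO, beside 3.77% of all compared genes, and 1 higher (Emb), beside 8.33% (median -1.43). Genes low in DKO could enter only by being high in WT, so this count is a description. Eomes stood at 107 CPM in WT, 74.7 in YAPKO, 154 in TAZKO and 26.9 in DKO, with -1.99 (-3.56 to -0.69) in DKO, and Klf2 at 413, 344, 324 and 80.6 CPM, with -2.36 (-3.16 to -1.63). Cma1 stood at 199, 139.5, 98.8 and 17.9 CPM, with -3.47 (-5.40 to -2.03), and Zeb2 at 134, 114, 281 and 44.8 CPM, with -1.58 (-2.76 to -0.53). Itga2, the integrin chain CD49b of circulating NK cells, stood at 76.5, 81.7, 102 and 22.4 CPM, with -1.77 (-3.54 to -0.31). Eomes defines the Eomes class, and Klf2, Cma1 and Zeb2 were higher in it. That class made up the smallest share of members in DKO (9.43%). With members thinned to 1000 UMIs its share was 5.66% in DKO and 5.84% in YAPKO. The part of the class shares in these levels was not tested. ILC1 and residency genes had 2 higher and 2 lower of 20 compared in DKO (median -0.06).

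Among genes higher in DKO were 2 of 20 ILC1 and residency genes, 2 of 18 transcription factors and 1 of 10 cytokine receptors, beside 8.33% of all compared genes. Il7r stood at 153 CPM in WT, 268 in YAPKO, 117 in TAZKO and 475 in DKO, with 1.63 (1.10 to 2.20) in DKO, and in all other kept cells the log2 ratio of DKO was 1.16. Tcf7 stood at 11.5, 53.6, 80.3 and 80.6 CPM, with 2.81 (1.04 to 5.22) from 3 UMIs in WT, and was past the fold in YAPKO (2.22, interval 0.57 to 4.56) and TAZKO (2.81, interval 1.10 to 5.18) too. Emb, the gene of the adhesion protein embigin, stood at 38.2, 163, 74.1 and 259.9 CPM, with 2.76 (1.78 to 3.90) in DKO and 2.10 (1.17 to 3.19) in YAPKO. WT was lowest for Tcf7 and Emb, and the 3 knockout libraries share that control. Of 18 transcription factors compared in DKO, Tcf7 and Bhlhe40 (1.48, interval 0.51 to 2.54) were higher and Eomes, Zeb2 and Klf2 lower. Tbx21, the gene of T-bet, stood at 49.7, 83.1, 92.7 and 89.6 CPM, and Id2 at 1170.2, 1191, 1158 and 1183 CPM, near equal in the 4 libraries.

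Genes of signalling and migration are set beside the 12.1% of all compared genes that were past the fold in DKO. Of 12 adaptors compared, Sh2d1a was lower (-1.42, interval -2.41 to -0.53), and of 10 cytokine receptors Il7r was higher and Il18rap, a subunit of the interleukin 18 receptor, lower (-1.51, interval -2.57 to -0.55). Of 16 homing and adhesion genes, 1 was higher (Rgs2; 1.81, interval 0.53 to 3.29) and 2 lower, Itga2 among them. Tyrobp stood at 3426 CPM in WT, 3577 in YAPKO, 2919 in TAZKO and 2348 in DKO, and Il2rb, the shared receptor chain of interleukins 2 and 15, at 558, 700.4, 883 and 779.5 CPM. Among immediate early and heat shock genes, Junb (1.19, interval 0.63 to 1.77) and Zfp36 (1.88, interval 0.60 to 3.35) were higher and Hspa1a and Hspa1b lower in DKO, of 14 compared. Hspa1b stood at 222, 18.3, 198 and 31.4 CPM in members and at 278, 15.9 and 39.2 CPM in other kept cells of WT, YAPKO and DKO, so Hspa1b was low in other kept cells of YAPKO and DKO too.

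Cell division genes summed to 631 CPM in WT, 2384 in YAPKO, 868 in TAZKO and 1313 in DKO, highest in YAPKO. In YAPKO 11 of the 15 genes had the 20 UMIs needed for a ratio, and in TAZKO and DKO 4 of 15. Genes with 0 or 1 UMI in WT could enter only by being high in YAPKO, so the count of genes past the fold is not read. Top2a, the topoisomerase of chromosome separation, had a log2 ratio of 4.11 (2.22 to 7.18), Birc5, the gene of survivin, 4.65 (2.12 to 9.97), and Hmgb2 1.36 (1.05 to 1.68). Mki67, the gene of the proliferation marker Ki-67, was at 0 in WT and at least 7.25-fold higher in YAPKO, with Ube2c at least 12.04-fold, Cdk1 at least 4.42-fold and the linker histone gene H1f5 at least 23.6-fold higher. Few cells held most UMIs of 12 of these genes. At least 5 UMIs of the 12 were in 6 of 154 YAPKO members (3.90%, 1.44 to 8.29). In WT 0 of 63 had them, which allows up to 5.69%, with 1 in TAZKO and 1 in DKO. The 6 cells held 521 of the 563 UMIs of the 12 genes in YAPKO members (92.5%), and 3 were of the Eomes class, 2 of the Gzmc/Cxcr6 class and 1 had both. Hmgb2, with 99 UMIs in WT against 13 for the 12 genes, was not among them. All 15 genes had 1692 UMIs in YAPKO members, and their part in the 6 cells was not counted. Without dividing members the ratio of Birc5 was -0.27 (-4.53 to 5.62), an interval that covers equal levels.

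In YAPKO, 3 of 21 homing and adhesion genes and 2 of 16 other NK receptors were past the fold, beside 7.31% of all compared genes. Cd160, a receptor of ILC1 and activated killers, stood at 249 CPM in WT, 561 in YAPKO, 339.8 in TAZKO and 394 in DKO, with 1.17 (0.79 to 1.58) in YAPKO. Klra5 stood at 321, 56.4, 71.0 and 202 CPM, with -2.51 (-3.09 to -1.95). Cxcr4, the chemokine receptor of bone marrow homing (1.69, interval 0.21 to 3.64), Gpr183, the oxysterol receptor EBI2 (3.08, interval 0.46 to 8.45), and Rgs2 (1.88, interval 0.76 to 3.25) were the homing and adhesion genes that were higher, with none lower. They had 4, 1 and 7 UMIs in WT and reached the 20 UMIs needed only through YAPKO. Their count is thus a description and is not read as a share. Over all members killing genes were near WT, with 1 of 16 cytotoxic effectors higher (Serpinb9b, 1.31, interval 0.15 to 2.70), none lower and a median of -0.01. In the Eomes class alone Gzmb was lower in YAPKO (-1.65, interval -1.99 to -1.31) and TAZKO (-2.60, interval -3.14 to -2.10). In the Gzmc/Cxcr6 class it was at 0.27 (0.05 to 0.48) in YAPKO and -0.33 (-0.63 to -0.05) in TAZKO. Of 567 Gzmb UMIs in WT members, 110 lay in 1 cell. None of 15 adaptors, 8 cytokines and chemokines and 12 cytokine receptors compared was past the fold in YAPKO. Among 26 conventional NK genes, Emb and Ly6c2 (1.34, interval 0.86 to 1.85) were higher and Klra8 lower, and among 22 ILC1 and residency genes Gpr183 and Tcf7 were higher. Of 16 identity genes Cd160 was past the fold, and of 20 transcription factors Tcf7 and Ikzf2 (1.22, interval 0.20 to 2.42), the gene of Helios, were higher and none lower. Outside the lists, Kcnab2 (-1.83, interval -2.87 to -0.82) and Lin37 (-1.76, interval -2.81 to -0.74) were lower, from 21 and 20 UMIs in WT. Trdc, the constant segment of the delta chain, was the 1 of 6 T cell markers past the fold (1.68, interval 0.55 to 3.06).

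In TAZKO, some Klr genes were past the fold, while 0 of 12 cytokine receptors were and 11 of 17 other NK receptors were not. Klri2, a lectin-like receptor, stood at 3.82 CPM in WT, 5.64 in YAPKO, 188 in TAZKO and 4.48 in DKO, with 5.62 (3.09 to 10.95) in TAZKO from 1 UMI in WT. Klrb1b stood at 15.3, 14.1, 213 and 0 CPM, with 3.80 (2.38 to 5.72). Klrc2 and Klrc1, the genes of the activating NKG2C and the inhibitory NKG2A, stood at 119, 271, 556 and 197 CPM (2.23, interval 1.67 to 2.83) and 91.8, 123, 346 and 108 CPM (1.91, interval 1.27 to 2.62). Klra8, the gene of Ly49H, stood at 57.4, 7.05, 229 and 13.4 CPM (1.99, interval 1.18 to 2.90, in TAZKO and -3.03, interval -4.84 to -1.49, in YAPKO), and Klra3 at 34.4, 21.1, 154 and 8.96 CPM (2.17, interval 1.13 to 3.38). In the other direction, Klra1, the gene of Ly49A, stood at 229, 202, 12.4 and 85.1 CPM (-4.21, interval -6.14 to -2.78), and Klrc3 at 103, 55.0, 34.0 and 49.3 CPM (-1.60, interval -2.76 to -0.55). Klra5 was lower in TAZKO too (-2.18, interval -2.91 to -1.50), as it was in YAPKO. TAZKO was the highest library for Klri2, Klrb1b, Klrc1, Klrc2, Klra3 and Klra8 and the lowest for Klra1 and Klrc3.

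These genes lie together on chromosome 6, between 128609227 and 131247362, an interval drawn after the values were seen. Of 19 Klr genes compared there in TAZKO, 9 were higher and 3 lower, while YAPKO had 1 and 2 of 18 and DKO 0 and 4 of 15, where 12.3%, 7.31% and 12.1% of all genes were past the fold. Klrb1c and Klre1 are among these genes and chose the members. Without them the counts were 8 and 3 of 17 in TAZKO, 1 and 2 of 16 in YAPKO and 0 and 4 of 13 in DKO. Genes low in WT, such as Klri2 and Klrb1b with 1 and 4 UMIs, had the 20 UMIs needed only because TAZKO was high, so these counts are a description and are not read as shares. Cells outside the members followed in part: in other kept cells the log2 ratio of TAZKO to WT was 4.08 for Klrb1b, 3.51 for Klri2, 2.42 for Klrc2 and 0.70 for Klra1. In T cells Klrc1 stood at 14.8, 9.73, 21.2 and 5.80 CPM and Klrc2 at 15.6, 10.1, 24.7 and 8.71 CPM. Klra1 stood there at 8.57, 9.73, 3.53 and 4.51 CPM, lowest in TAZKO, and Klra3 at 0, 0, 6.19 and 0 CPM. To which copy the reads of these paralogs belong was not tested. The 4 matrices list the same gene ids in the same order. Whether the mice shared a strain background was not tested either.

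**Figure D5:**
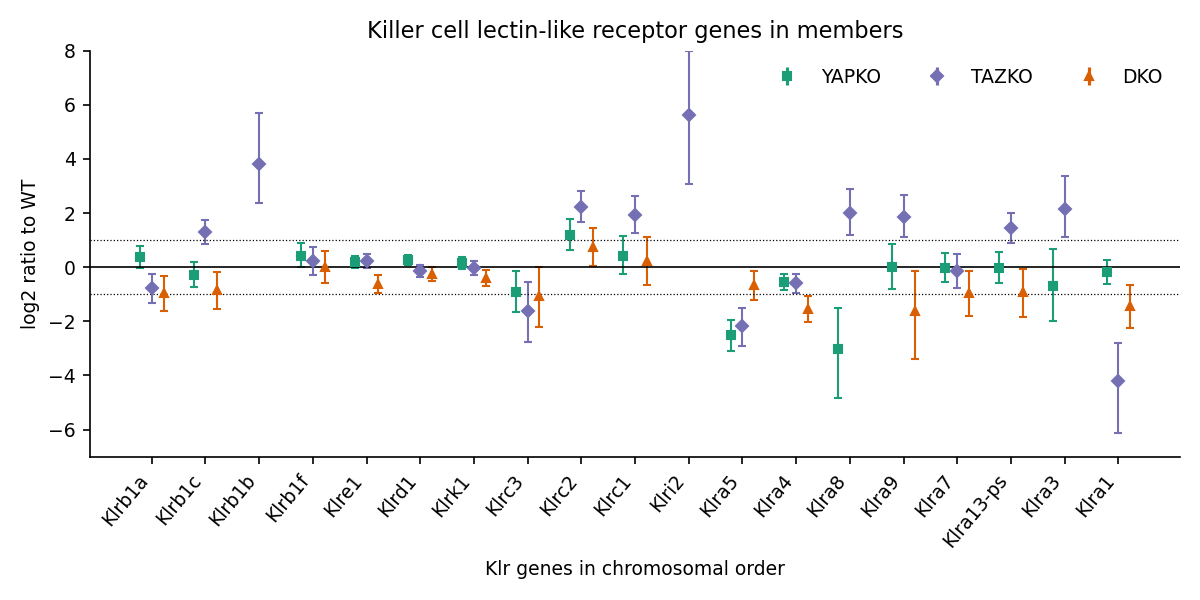
Log2 ratio to WT of Klr genes in members of YAPKO, TAZKO and DKO, ordered along chromosome 6, with exact intervals of counting error, dotted lines at a fold of 2 and the upper end for Klri2 beyond the panel. TAZKO held the highest ratio, Klri2 at 5.62, and the lowest, Klra1 at -4.21.

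As lists, the Ly49 receptors had 4 higher and 2 lower of 8 in TAZKO (median 0.65), 0 and 2 of 8 in YAPKO (median -0.37) and 0 and 3 of 6 in DKO (median -1.19). Over all compared genes, 8.09% were higher and 4.18% lower in TAZKO, 3.83% and 3.49% in YAPKO, and 8.33% and 3.77% in DKO. Their sum was 1667 CPM in WT, 1089 in YAPKO, 1677 in TAZKO and 712 in DKO, so WT and TAZKO were level in the sum while single genes went opposite ways. Other NK receptors had 5 higher and 1 lower of 17 in TAZKO, 2 and 0 of 16 in YAPKO, and 0 and 1 of 14 in DKO. Runx3, a factor of killer lymphocytes, stood at 130.0 CPM in WT, 197 in YAPKO, 337 in TAZKO and 233 in DKO, with 1.37 (0.81 to 1.97) in TAZKO. Cx3cr1, the fractalkine receptor of mature NK cells (1.78, interval 0.16 to 3.81), and the integrin chains Itgam (1.12, interval 0.03 to 2.34) and Itgal (1.04, interval 0.60 to 1.51) were higher in TAZKO, 3 of 4 homing and adhesion genes past the fold beside Rgs2, of 19 compared. Among cytotoxic effectors, Gzmb, Cst7 (-1.01, interval -1.61 to -0.42) and Ctsc (-1.07, interval -1.88 to -0.29), the peptidase that activates granzymes, were lower and none higher of 15. Conventional NK genes had 6 higher and 3 lower of 26 in TAZKO (median 0.28), with Zeb2 (1.07, interval 0.49 to 1.68) among the higher and Cma1 (-1.01, interval -1.69 to -0.35) among the lower. Klra3, Klra8 and Klra9 were also among the higher and are counted with the Ly49 receptors too. ILC1 and residency genes had Tcf7 higher and Tmem176a (-1.45, interval -2.32 to -0.64), Tmem176b (-1.31, interval -1.97 to -0.67) and Ctla2a (-1.02, interval -1.46 to -0.60) lower of 21. Of 16 identity genes, only the rule gene Klrb1c was past the fold (1.30, interval 0.87 to 1.75), and of 19 transcription factors Zeb2, Ikzf2, Tcf7 and Runx3 were higher and none lower. None of 14 adaptors, 7 cytokines and chemokines and 12 cytokine receptors was past the fold in TAZKO.

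Interferon-inducible genes were past the fold for few genes: Ifi27l2a and Gbp2 lower of 10 in YAPKO, Ifit1 higher of 11 in TAZKO (2.28, interval 0.74 to 4.26) and Ifi27l2a lower of 9 in DKO (-2.41, interval -3.61 to -1.38). Ifi27l2a stood at 214, 74.7, 188 and 40.3 CPM by library. Division genes outside YAPKO had Cenpa higher of 4 in TAZKO (2.15, interval 0.59 to 4.15) and Top2a (3.55, interval 1.51 to 6.69) and Stmn1 (3.17, interval 1.94 to 4.69) higher of 4 in DKO, where 17 of 20 Top2a UMIs lay in 1 cell. Immediate early and heat shock genes had Hspa1a and Hspa1b lower of 14 in YAPKO and Jun higher of 14 in TAZKO (1.47, interval 0.65 to 2.38).

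The markers of other cells moved between the libraries and are given beside these counts. Of hepatocyte markers, 23 of 23 compared were lower in YAPKO, 14 of 24 lower and 1 higher in TAZKO, and 5 of 24 lower and 4 higher in DKO, with medians of -3.17, -1.29 and -0.25. Leaving hepatocyte markers and mitochondrial genes out of the totals moved the log2 ratios by -0.08, -0.05 and 0.01. Neutrophil markers S100a8 and S100a9 were past the fold and higher in YAPKO and DKO, but 139 of 143 UMIs of S100a8 in YAPKO and all 67 in DKO lay in 1 cell. Lyz2 was higher in TAZKO (1.62, interval 0.64 to 2.73). None of the 4 T cell markers compared in TAZKO and 5 in DKO was past the fold, nor the 1 B cell marker or the 1 marker of other innate lymphocytes in any library. Of endothelial markers 0 of 2 and of Kupffer cell markers 1 of 1 (C1qb, lower) were past the fold in YAPKO. Cd209a, a marker of dendritic cells, was lower in all 3 comparisons, and its 42 WT UMIs lay in 1 cell.

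Several of the largest ratios belonged to whole libraries and not to members alone. Gm8420, a ribosomal protein pseudogene, stood at 398, 643, 0 and 363 CPM in members and 258, 392, 0.426 and 271 CPM in other kept cells, and in TAZKO members it was at least 42.9-fold lower than in WT. Trim12a, a TRIM protein gene, stood at 99.4, 117, 77.2 and 0 CPM in members and 56.7, 68.7, 33.9 and 0.936 CPM in other kept cells, at least 7.40-fold lower in DKO members. Gm1966 stood at 111, 118, 148 and 0 CPM in members and 47.8, 66.9, 30.2 and 0.461 CPM in other kept cells, at least 8.25-fold lower in DKO members. Each was at or near 0 in 1 library, in members and other cells alike. The 4 matrices list the same 55488 gene ids in the same order. It was not tested whether the mice were of a single strain background or the matrices processed in a single way. Rps3a3 had 0 UMIs in WT and was at least 184-fold higher in TAZKO and 191-fold in DKO, with Rps15a-ps8 at least 23.4-fold and 51.5-fold and Rps13-ps1 at least 6.73-fold and 12.1-fold higher. Gm14094 (-5.73, interval -11.07 to -3.18) and Gdpd3, a phosphodiesterase gene (-3.38, interval -4.33 to -2.54), were low in TAZKO, and in other kept cells their log2 ratios were -8.09 and -2.13. Ssh1, the gene of the actin regulator slingshot, went from 0 UMIs in WT to 25 in TAZKO members, at least 6.73-fold higher, with 0.43 in other kept cells. Wls, the carrier of secreted Wnt proteins, stood at 829.8, 965, 859 and 53.8 CPM in members and 83.5, 100.4, 127 and 49.5 CPM in other kept cells, a log2 ratio in DKO of -3.95 in members and -0.75 in other kept cells. Cxcl9 and Cxcl10, chemokines induced by interferon gamma, had 182 and 77 UMIs in DKO members, all in 1 cell.

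With 1 mouse for each genotype, values of members set libraries side by side and show counting error only, and DKO rests on 53 members, 5 of them in the Eomes class. The classes and the T cell comparison rest on 4 mice of 4 genotypes, and reads of paralogs in the Klr, granzyme and ribosomal families are uncertain in their source.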

How the data were processed

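Single-cell RNA was measured in 4 liver libraries, WT, YAPKO, TAZKO and DKO, from 1 mouse each. The deposited matrices hold raw counts of UMIs per gene and barcode, made by the authors with Cell Ranger on mm10 (6.0.1 in their processing notes, 4.0.0 in the matrix headers), in all 44974 barcodes. Cells were kept at 500 to 6000 genes with a UMI and with 10% or less of UMIs from mitochondrial genes. The members and the 23 gene lists (310 genes, 309 in the matrices) were chosen with earlier results of these data known. Shares have Clopper-Pearson intervals, CPM exact Poisson intervals and ratios to WT exact conditional binomial intervals, all 95% and of counting error only, and a count of 0 was set at 3 UMIs for bounds. Libraries were compared at genes with at least 20 UMIs over both, at a fold of 2. Precision follows the summed UMIs of members, from 223208 in DKO to 709595 in YAPKO.

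Classes, and members and T cells, were compared on UMIs summed per library with edgeR 4.0.16 (TMM, filterByExpr, quasi-likelihood test, library as block, Benjamini-Hochberg over all genes tested, adjusted p at most 0.05) and with DESeq2 1.42.0 as an alternative, in R 4.3.3. Other steps used Python 3.11.15, numpy 2.4.6, scipy 1.17.1, pandas 2.3.3, scanpy 1.11.5 and matplotlib 3.10.9. Scrublet's automatic threshold did not work (2, 1, 3 and 1 cells called), so doublets were kept, and the top 8% of scores in each library were left out as an alternative; 10 members were among them. Named genes were those of the lists, the 10 in each direction of the class contrast with the largest fold change among called genes with the same direction in all 4 libraries, and the 5 in each direction of each library with the largest ratio to WT, leaving out mitochondrial genes and genes lower in members than in other kept cells; a few of these genes are not reported here. The 20 genes most enriched in members needed at least 50 UMIs, a minimum set after the values were seen. The Klr interval, the limit for dividing members, the T-box motif (the 1 motif tried) and the genes followed cell by cell were also chosen after seeing the values. Chromosome positions came from GENCODE M21, which matched 32874 of 32950 genes with UMIs. Alternatives changed the limits on cells, the rule, the class genes, depth (1000 UMIs a cell), scaling, filters, block, tool, libraries and count minimum.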

Additional observations from a re-analysis of the deposited data

Results flagged for a closer look

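For 4 of 321 genes compared between the classes within libraries, the log2 ratio of the Eomes class to the Gzmc/Cxcr6 class lay above 0 with its counting interval in 1 library and below 0 in another. Gzmb, the gene of granzyme B, had 0.54 in WT, -1.38 in YAPKO, -1.73 in TAZKO and -3.24 in DKO. The DKO value came from 2 UMIs in the Eomes class and 153 in the other. Of 567 Gzmb UMIs in WT members, 110 were in 1 cell. Bhlhe40, a transcription factor of resident lymphocytes, had -2.05 in TAZKO (3 and 16 UMIs) and 2.34 in DKO (5 and 8 UMIs). Tubb5, a tubulin gene, had 0.84 in YAPKO and -1.33 in TAZKO. Plac8 had -2.92 in WT (2 and 35 UMIs) and 1.53 in YAPKO. These differences between libraries were not tested.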

How the results depend on the processing

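Each result was computed again under the alternatives, 8 of them chosen after seeing the data (without dividing members, at least 3 UMIs of the rule genes, without the member with most UMIs, without the cell with most UMIs of a gene, Ncr1 and Klre1 alone, Klr and identity genes without those of the rule, and Cd74 without 4 cells). Of 166 values that answer the comparisons, 108 stayed within the limits set for a move and 58 moved. Of 651 values of single genes, 609 stayed, 38 moved, 2 became weaker (Cd74 and Klra5 without the library block) and 2 turned in sign with intervals that cover 0. The share of members in kept cells became 0.571% in WT, 4.12% in YAPKO, 0.716% in TAZKO and 1.01% in DKO with limits read as UMIs, 0.574%, 1.87%, 0.791% and 0.328% with cells thinned to 1000 UMIs, and 0.977% in DKO at 1 UMI of the rule genes. The Eomes class of WT, YAPKO and TAZKO became 11.1%, 5.84% and 17.2% with members thinned. The Gzmc/Cxcr6 class became 19.0%, 22.7%, 12.6% and 15.1% with members thinned, 14.3%, 15.6%, 6.90% and 9.43% with Gzmc alone, and 31.8% in YAPKO with Cxcr6 alone. Genes higher in the Eomes class numbered 37 with DESeq2, 24 without the library block, 29 to 63 on leaving out a library (37 without WT, 29 without YAPKO), 36 thinned and 35 with Gzmc alone. Genes higher in the Gzmc/Cxcr6 class numbered 44, 20, 34 to 94 (34 without WT, 40 without YAPKO), 23 and 28 in the same settings, and 179 without a filter. Against T cells, 243 genes were higher and 257 lower without the library block, and 745 lower without a filter. At 50 UMIs over both libraries, 103 genes were higher and 90 lower in YAPKO, 114 and 80 in TAZKO, and 81 and 57 in DKO. At 1 UMI, 399 were lower in YAPKO, 537 higher and 281 lower in TAZKO, and 644 and 213 in DKO. In the Eomes class alone, 74 were higher and 65 lower in YAPKO, 77 and 76 in TAZKO, and 11 and 33 in DKO. In the Gzmc/Cxcr6 class alone, 148 were higher in TAZKO, and 92 higher and 82 lower in DKO. At 3 UMIs of the rule genes, 152 were higher in DKO. The ratio of Ccl5 in DKO became 0.085 in the Eomes class alone (-0.17 to 0.33) and that of Birc5 in YAPKO to -0.27 without dividing members (-4.53 to 5.62). Klr genes without those of the rule had 8 higher and 3 lower of 17 in TAZKO, 1 and 2 of 16 in YAPKO and 0 and 4 of 13 in DKO, among genes whose number depends on the levels compared. Cd74 fell to 78.6, 46.3 and 49.3 CPM in the Gzmc/Cxcr6 class of WT, YAPKO and DKO without 1, 1 and 2 cells. The cause of these moves was not tested.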
